A study of Danio rerio with 10 samples.

Results

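The lens crystallin genes are the genes of zebrafish that encode the crystallins, the bulk proteins of the eye lens, together with 7 genes for lens fibre membrane proteins, for the lens cytoskeleton and for lengsin. They were picked from the table of counts by symbol: names beginning with cryaa, cryab, cryba, crybb, crybg, crygm, crygn or crygs, and lgsn, mipa, mipb, lim2.1, lim2.4, bfsp1 and bfsp2, with a mean of at least 10 normalized counts over all samples. Of 32520 genes listed, 67 carried such a name and 51 had the required mean. The light-sensing cryptochromes, whose symbols also begin with cry, were left out. The 51 genes comprise 2 alpha crystallins, 12 beta crystallins, 21 gamma crystallins of the M2d type, 5 other gamma M crystallins, 2 gamma N crystallins, 2 relatives of crybg1, and the 7 membrane, cytoskeleton and lengsin genes. Just inside the required mean were *crygm2e* at 11.5 and *cryabb* at 13.6 normalized counts, and just outside were *crybb3* at 7.28 and *crygmxl1* at 5.37. All 4 gamma S crystallins listed, *cryaba*, *crybb2* and 8 further gamma M crystallins also fell below it.

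RNA of pools of whole larvae at 5 days post fertilization (dpf) was sequenced after exposure of the AB strain, from within 6 h of fertilization onwards, to a mixture of persistent organic pollutants (POP). The mixture was given at 75 times (POP75×, replicates 2, 3 and 4) or 125 times (POP125×, replicates 1, 2, 3 and 4) its level in human blood, and control larvae (replicates 1, 2 and 4) received the solvent alone. All 10 samples, controls included, contained 0.1% DMSO. The labels give pools of 75 larvae per sample and independent experiments, while the methods of the study state another pool size, and neither ties equal replicate numbers of different conditions to a shared clutch or day. The study also examined the eyes of the larvae, and the question here is how the messages of the lens compared between the conditions. A whole larva contains 2 small lenses among all other tissues, so that fewer lens cells and less RNA per lens cell cannot be told apart in these samples.

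Lens fibre cells are formed throughout life from the epithelium that covers the front of the lens. They elongate, fill with crystallins, and break down their nuclei and organelles, so that the stored proteins have to last. Alpha crystallins belong to the small heat shock proteins and keep other proteins in solution, whereas beta and gamma crystallins share a fold of their own and pack densely. In fish, the gamma crystallins rich in methionine, called gamma M, are abundant and belong to an expanded family. Aquaporin 0, the lim2 proteins and the beaded filament proteins belong to the membrane and cytoskeleton of the fibres.

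The values are the authors' normalized counts, that is, the reads of a gene after division by a factor for the library, and the samples held 13659239 to 20267255 reads on genes. A gene was tested where 3 or more samples reached 10 normalized counts, which left 21563, and all 51 lens genes were among them. The samples were clustered on the tested genes other than the lens genes, and the tree was cut into 3 sets. That number was chosen and other cuts were not examined. Each set had samples of at least 2 conditions. Set 1 consisted of POP125× replicates 3 and 4 with POP75× replicate 4 and control replicate 1. Set 2 consisted of POP75× replicate 3 with control replicates 2 and 4, and set 3 of POP125× replicates 1 and 2 with POP75× replicate 2. These sets come from the data and not from the labels, set 3 holds no control, and set 2 holds no POP125× sample, so that set and condition are partly entangled. POP75× replicate 3 stood apart further, with the highest value of all samples in 22.4% and the lowest in 21.0% of the tested genes. Defining lens genes were present in every sample: *cryaa*, *mipa*, *mipb*, *BFSP1*, *bfsp2* and the gap junction gene *gja8b* were above the value of 3 reads throughout, whereas *foxe3*, a transcription factor of the lens epithelium, was low, with 0.985 normalized counts in control replicate 4. Below, values by sample are given in the order of the replicate numbers named above, which are 1, 2 and 4 for the controls, 2, 3 and 4 for POP75×, and 1 to 4 for POP125×.

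Between 0.161% and 0.882% of all reads on genes fell on the lens genes. The controls had shares of 0.676%, 0.200% and 0.208%. The POP75× samples had 0.809%, 0.161% and 0.548%, and the POP125× samples had 0.691%, 0.882%, 0.492% and 0.336%. Control replicate 1 lay among the exposed samples, POP75× replicate 3 lay below all controls, and the ranges of the conditions overlapped. The control mean was 0.361% ± 0.272 (SD, n = 3), the POP75× mean 0.506% ± 0.326 (SD, n = 3) and the POP125× mean 0.600% ± 0.237 (SD, n = 4). The Wilson 95% interval of the lowest share ran from 0.160% to 0.163% and that of the highest from 0.877% to 0.887%, which covers counting error only and is narrow beside the spread within a condition.

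**Figure D1:**
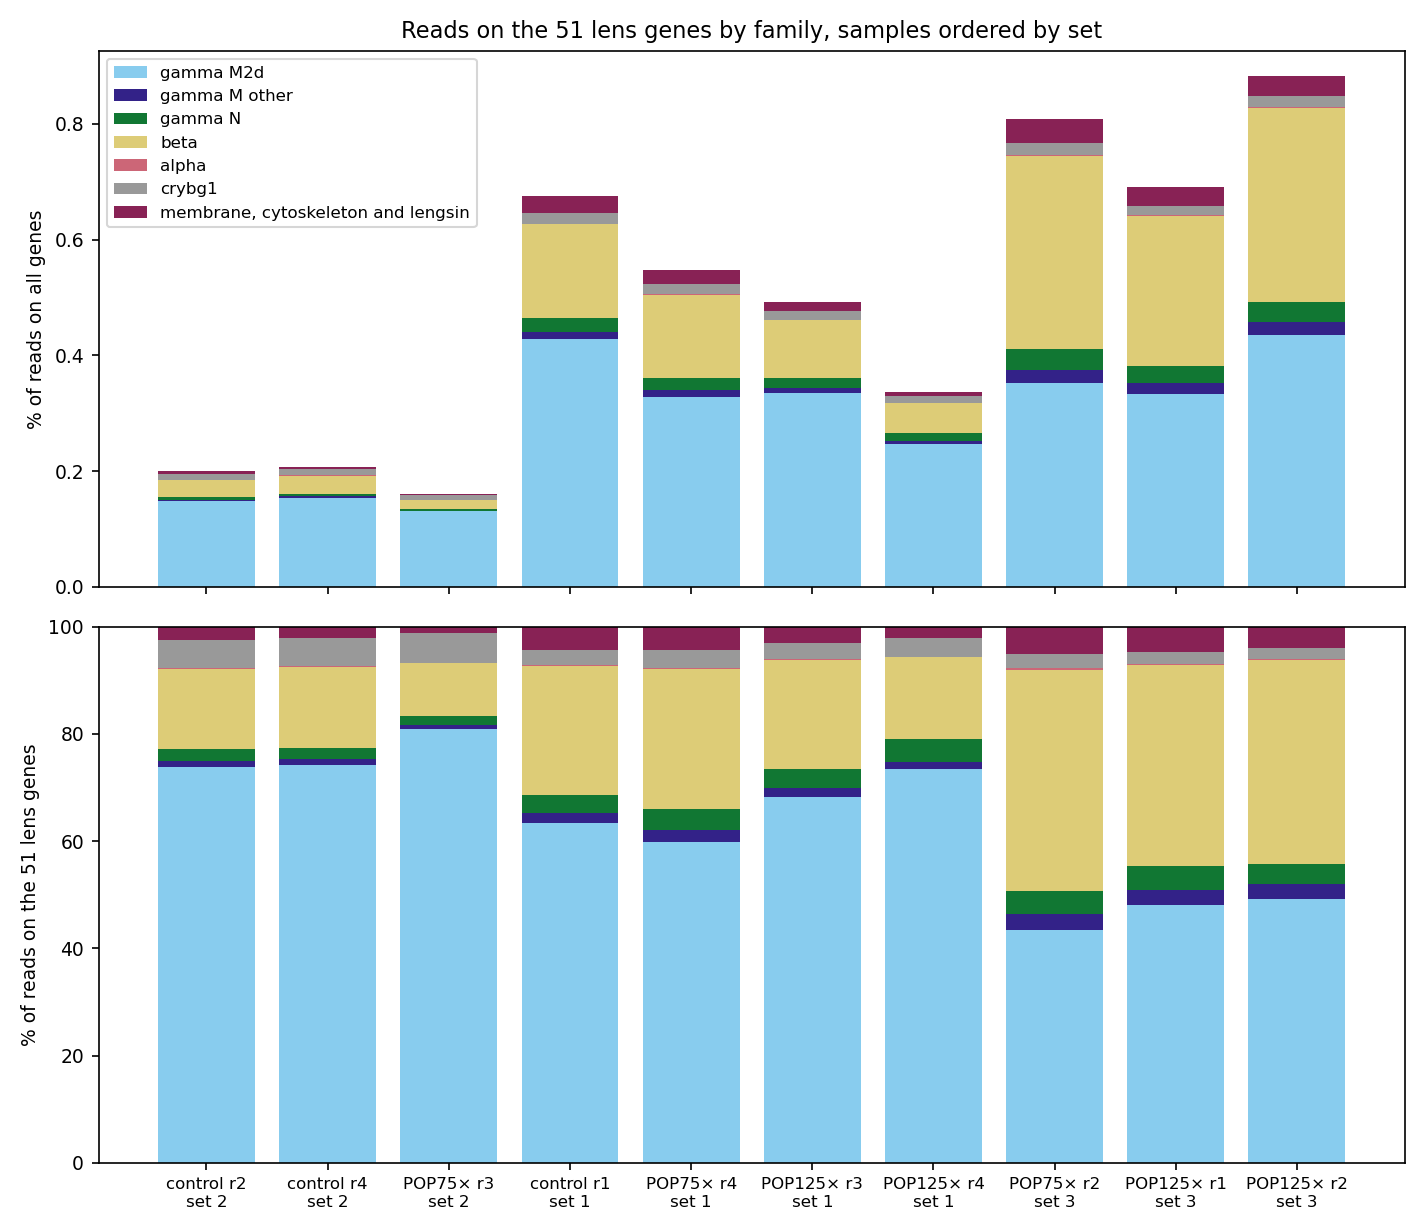
Reads on the 51 lens genes by family in each of the 10 samples, ordered by the 3 sample sets, as percent of reads on all genes (top) and as percent of reads on the lens genes (bottom), with each bar 1 sample and no error bars. The share runs from 0.161% in POP75× replicate 3 to 0.882% in POP125× replicate 2, and the gamma M2d portion is smallest in the 3 samples of set 3.

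No lens gene passed the threshold in any of the 3 comparisons between conditions (limma with Benjamini-Hochberg adjustment over all genes tested, adjusted p under 0.05). Between POP125× and control, 0 of the 51 were called, against 1.70% of all genes tested, and 2 had an unadjusted p under 0.05, against 21.0% of all genes. Between POP75× and control 0 were called and 1 had an unadjusted p under 0.05, where 0% and 5.91% of all genes did. Between POP125× and POP75× 0 were called and 0 had such a p, where the background was 0% and 4.87%. DESeq2 on the recovered reads of all samples called 0 of the 51 in each comparison, against 7.49%, 0.589% and 0.0974% of all genes, and edgeR called 0 as well, against 1.32%, 0% and 0%.

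The estimates themselves were mostly above 0. The median log2 fold change of the 51 genes was 0.78 between POP125× and control, where that of all genes was −0.01, and 48 of the 51 estimates were positive. It was 0.41 between POP75× and control, with 50 positive, and 0.43 between POP125× and POP75×, with 48 positive. The first comparison shares its control samples with the second and its POP125× samples with the last, so that the 3 medians are not independent. One library moved each of them. Without control replicate 1 the median at POP125× was 1.33, and without control replicate 2 it was 0.45. The median at POP75× was 0.93 without control replicate 1, 0.91 without POP75× replicate 3 and −0.02 without POP75× replicate 2. That between POP125× and POP75× was −0.23 without POP75× replicate 3.

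The order of the samples was much the same for most lens genes. POP75× replicate 2 and POP125× replicates 1 and 2 were all above control replicates 2 and 4 and POP75× replicate 3 in 49 of the 51 genes, an order found in 29.2% of all tested genes. The exceptions were *cryabb* and *crybg1b*. The 4 samples of set 1 were all above the same low samples in 42 of the 51, against 21.1% of all genes. POP125× replicate 2 had the highest value in 27 lens genes and POP75× replicate 2 in 14, against 10.5% and 9.73% of all genes, and POP75× replicate 3 had the lowest in 33, against 21.0% of all genes. The highest and the lowest samples thus both included POP75× pools.

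Among the alpha crystallins, *cryaa* (ENSDARG00000053502), the alpha A crystallin, had 176, 25.4 and 21.7 normalized counts in the controls, with 316, 11.7 and 160.2 at POP75× and 211, 333, 89.8 and 34.9 at POP125×. Control replicate 1 was above both of the lower POP125× samples, and the groups overlapped. The log2 fold change at POP125× was 1.38 (SE 1.11, adjusted p = 0.477, limma), and the highest sample was 28.4-fold above the lowest. The gene *cryabb* (ENSDARG00000101380), an alpha B crystallin, which is known in other vertebrates from muscle as well as from the lens, did not share this order. Its normalized counts were 19.1, 9.78 and 7.88 in the controls, with 14.0, 16.0 and 25.4 at POP75× and 5.25, 7.30, 15.9 and 15.7 at POP125×. Its lowest values were those of POP125× replicates 1 and 2, where *cryaa* was high. The log2 fold change was −0.18 (SE 0.47, adjusted p = 0.838, limma) at POP125×, and it was 0.17 without control replicate 1.

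The membrane, cytoskeleton and lengsin genes had the widest median range between samples, 19.2-fold from the lowest to the highest, where that of the beta crystallins was 14.9-fold. *BFSP1* (ENSDARG00000074919), for filensin of the beaded filament, had 159, 19.6 and 11.8 normalized counts in the controls, with 615, 10.7 and 148 at POP75× and 405, 617, 93.5 and 16.6 at POP125×. *BFSP1* was thus 57.9-fold higher in the highest sample than in the lowest, and POP125× replicate 4 was as low as control replicates 2 and 4. Its partner *bfsp2* (ENSDARG00000011998), for phakinin, had 581, 75.3 and 52.2 in the controls, with 840.3, 43.7 and 507 at POP75× and 726, 758, 299 and 190.3 at POP125×. Control replicate 1 was above POP125× replicates 3 and 4 for both genes. The log2 fold changes at POP125× were 2.04 (SE 1.46, adjusted p = 0.425, limma) for *BFSP1* and 1.66 (SE 1.03, adjusted p = 0.360, limma) for *bfsp2*.

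Lengsin, *lgsn* (ENSDARG00000007715), a lens protein related to glutamine synthetase, had 189, 15.6 and 11.8 normalized counts in the controls, with 488, 10.7 and 185 at POP75× and 385, 378, 100.0 and 66.4 at POP125×. It carried the largest estimate of the 51 at POP125×, a log2 fold change of 2.37 with an SE of 1.26, and was not called (adjusted p = 0.299, limma). At POP75× the estimate was 1.57 (SE 1.34). Control replicate 1 alone exceeded both POP125× replicates 3 and 4, so the ranges overlapped.

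The aquaporin 0 genes, for the water channel of the fibre membrane, both had their lowest value in POP75× replicate 3 and their highest in POP75× replicate 2. *mipa* (ENSDARG00000037285) had 1579, 279 and 258 normalized counts in the controls, with 1763, 92.7 and 1342 at POP75× and 1269, 1422, 855 and 327 at POP125×. *mipb* (ENSDARG00000013963) had 1234, 303 and 304 in the controls, with 2154, 93.8 and 1024 at POP75× and 1806, 2032, 736 and 284 at POP125×. For *mipa*, control replicate 1 was above all POP125× samples, and for *mipb* POP125× replicate 4 was below all controls. The log2 fold changes at POP125× were 0.80 (SE 0.98) and 0.95 (SE 1.00), with adjusted p of 0.646 and 0.589 in limma. The lim2 genes, for intrinsic membrane proteins of the fibres, had smaller ranges. *lim2.4* (ENSDARG00000015445) had 429, 143 and 157 in the controls, with 630.5, 102 and 359 at POP75× and 448, 477, 314 and 217 at POP125×, a log2 fold change of 0.71 (SE 0.57, adjusted p = 0.476, limma). *lim2.1* (ENSDARG00000068974) had 95.4, 52.8 and 47.3 in the controls, with 107, 34.1 and 93.8 at POP75× and 91.4, 102, 76.7 and 51.5 at POP125×, so that the conditions overlapped widely. It had a log2 fold change of 0.33 (SE 0.41, adjusted p = 0.653, limma).

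**Figure D2:**
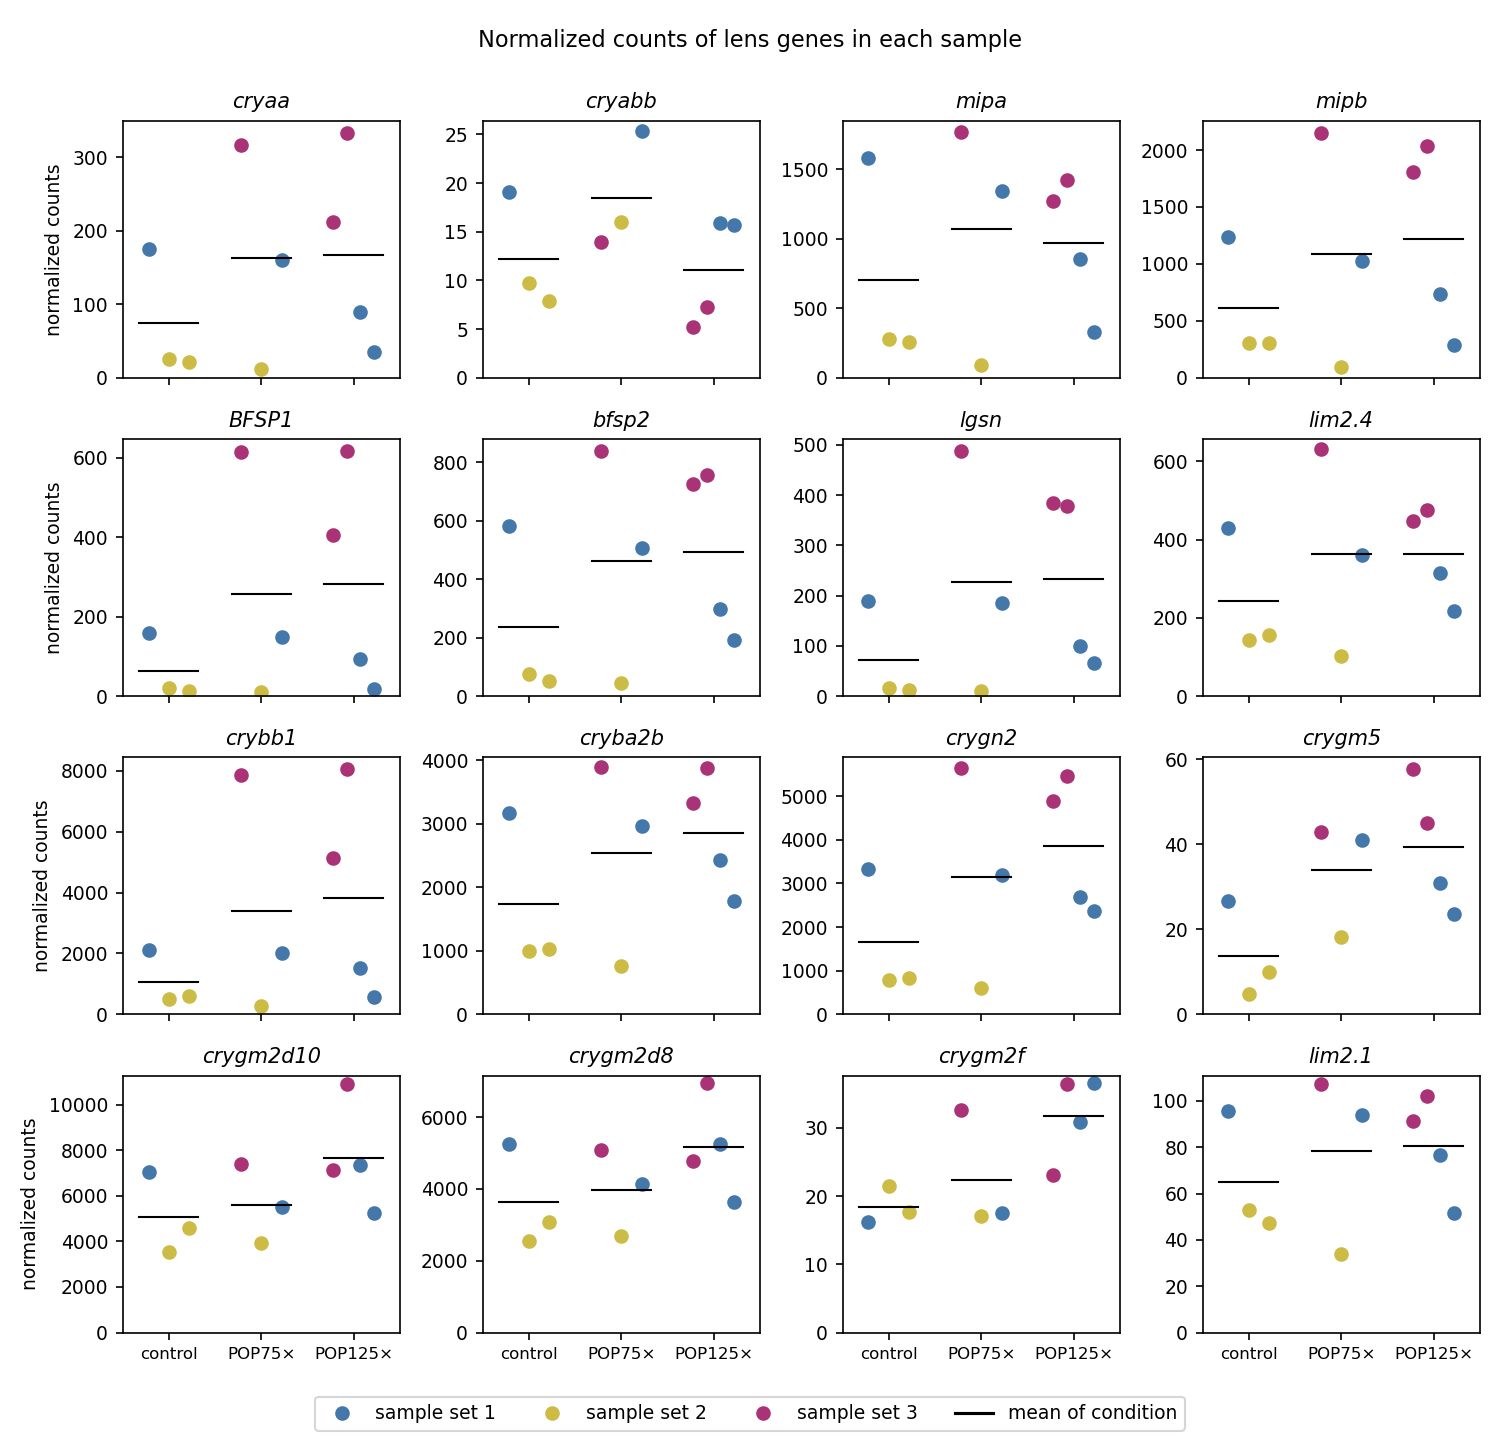
Normalized counts (linear axes from 0) of 16 lens genes in each sample by condition, with points coloured by sample set and lines at the mean of each condition. In most panels the 3 samples of set 3 are high and the 3 of set 2 low in whichever condition they belong to. The panel of *cryabb* departs from this order, and that of *crygm2f* has its highest and its lowest value in set 1.

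Beta crystallins followed the same order with large ranges. *crybb1l1* (ENSDARG00000007576) had 3579, 475 and 548 normalized counts in the controls, with 11489, 261 and 3378 at POP75× and 8040.1, 11889.7, 2237 and 835 at POP125×. *crybb1* (ENSDARG00000068507) had 2117, 503 and 610.5 in the controls, with 7856, 288 and 2028 at POP75× and 5127, 8057, 1524 and 556 at POP125×. In both genes control replicate 1 exceeded POP125× replicates 3 and 4, and for *crybb1* POP125× replicate 4 lay between control replicates 2 and 4. The log2 fold changes at POP125× were 1.90 (SE 1.25, adjusted p = 0.388, limma) and 1.49 (SE 1.10, adjusted p = 0.439, limma), and the highest samples exceeded the lowest 45.5-fold and 28.0-fold.

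Among the acidic beta crystallins of the A type, *cryba2b* (ENSDARG00000041925) had 3171, 1000.3 and 1021 normalized counts in the controls, with 3887, 754 and 2962 at POP75× and 3329.7, 3879.7, 2424 and 1780.1 at POP125×, and its range of 5.15-fold was the smallest among the 11 beta crystallins with more than 3 reads in each sample. *cryba1l1* (ENSDARG00000032929) had 2439, 601 and 643 in the controls, with 5203, 378 and 2405 at POP75× and 4166, 5629.9, 1833 and 963 at POP125×. Log2 fold changes at POP125× were 0.88 (SE 0.56, adjusted p = 0.371, limma) and 1.37 (SE 0.86, adjusted p = 0.370, limma). In both, control replicate 1 lay within the POP125× range. *crybb1l2* (ENSDARG00000016793), a relative of *crybb1*, had 4824, 1145 and 1105 in the controls, with 7923, 612 and 4135 at POP75× and 7138, 8863, 2551 and 1329.6 at POP125×, and an estimate of 1.07 (SE 0.90, adjusted p = 0.498, limma).

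The lowest p of a beta crystallin at POP125× was that of *crybgx* (ENSDARG00000036140), which had 658, 130.1 and 152 normalized counts in the controls, with 1366, 107 and 531 at POP75× and 1117, 1532, 545 and 426 at POP125×. Its log2 fold change was 1.75 (SE 0.81, unadjusted p = 0.0534, adjusted p = 0.246, limma). Control replicate 1 lay within the POP125× range. Over all 12 beta crystallins the median estimate at POP125× was 1.22 and ran from −0.17 to 1.90, with 11 positive, and at POP75× it was 0.67, also with 11 positive. In every one of the 12, POP75× replicate 3 was the lowest sample. The estimate for *crybb1l3* was the one below 0 in both comparisons, and this gene was counted with a single read in its lowest sample.

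The 21 gamma M2d crystallins varied less. Their sum was 63324, 26755 and 28789 normalized counts in the controls, with 56036, 28161 and 49765 at POP75× and 52988, 72201, 53887 and 40628 at POP125×. POP75× replicate 3 lay here between control replicates 2 and 4, and POP125× replicate 2 alone was above control replicate 1. The sum is given because the 21 genes are close copies: in the RefSeq annotation of assembly GRCz12tu they are 21 protein-coding genes in a row on 1 chromosome with no other protein-coding gene between, and how reads were split among them is uncertain. One of them, ENSDARG00000109861, bears the symbol crygm2d17 in the table of counts, as does ENSDARG00000069817.

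Of the gamma M2d crystallins, *crygm2d10* (ENSDARG00000087765) had the highest mean. It had 7043, 3514 and 4583 normalized counts in the controls, with 7414, 3932 and 5499 at POP75× and 7132, 10901, 7361 and 5247 at POP125×. *crygm2d8* (ENSDARG00000116164) had 5258, 2551 and 3068 in the controls, with 5070.0, 2685 and 4143 at POP75× and 4789, 6935, 5258 and 3638 at POP125×. Both genes were above control replicates 2 and 4 in each POP125× sample, and control replicate 1 lay within the POP125× range. Their log2 fold changes at POP125× were 0.61 (SE 0.31, adjusted p = 0.276, limma) and 0.54 (SE 0.30, adjusted p = 0.321, limma). *crygm2d5* (ENSDARG00000069792) had 5291, 2182 and 2259 in the controls, with 4291, 1846 and 3457 at POP75× and 4129, 5835, 4116 and 2898 at POP125×. *crygm2d21* (ENSDARG00000086658), the copy with the smallest p, had 2011, 1011 and 998 in the controls, with 2279, 1183 and 1821 at POP75× and 2053, 2721, 1714 and 1560.1 at POP125×. In both copies control replicate 1 lay within the POP125× range, and they had estimates of 0.47 (SE 0.37) and 0.63 (SE 0.30) with adjusted p of 0.463 and 0.256 in limma. All 21 estimates were positive at POP125×, between 0.34 and 0.86 with a median of 0.60, and all 21 were positive at POP75× with a median of 0.22. The highest over the lowest sample was 2.07- to 4.37-fold, with a median of 2.82-fold, against a median of 2.08-fold over 20792 genes with more than 3 reads in every sample.

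Because the families varied by different amounts, the makeup of the lens reads differed between samples. Gamma M2d crystallins made up 43.5%, 48.1% and 49.3% of the reads on lens genes in POP75× replicate 2 and POP125× replicates 1 and 2. In the 3 samples with the smallest share of lens reads, control replicates 2 and 4 and POP75× replicate 3, they made up 73.8%, 74.2% and 80.9%. The portion in POP125× replicates 3 and 4 was 68.2% and 73.5%, and that in control replicate 1 was 63.3%, and the ranges of the conditions overlapped. Beta crystallins took the complementary course, with 41.2% in POP75× replicate 2 and 9.84% in POP75× replicate 3, and the Wilson intervals of these portions reached at most 0.448 percentage points to either side.

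The other gamma M crystallins comprised both genes with the smallest p of all 51. *crygm5* (ENSDARG00000041179) had 26.7, 4.89 and 9.85 normalized counts in the controls, with 42.9, 18.1 and 41.0 at POP75× and 57.8, 45.0, 30.9 and 23.6 at POP125×. A single POP125× sample, replicate 4, fell below control replicate 1, and all POP125× samples were above the other controls. The log2 fold change was 1.66 at POP125× (SE 0.52, unadjusted p = 0.00880, adjusted p = 0.123, limma) and 1.44 at POP75× (SE 0.56, adjusted p = 0.741, limma). It was called at POP125× when only those samples and the controls were fitted with DESeq2 (adjusted p = 0.0470, against 13.4% of all genes called) and in limma without control replicate 1 (adjusted p = 0.0444, log2 fold change 2.25, against 2.19% of all genes called), and in 9 other limma fits leaving out 1 library the adjusted p was between 0.0621 and 0.430.

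*crygm2f* (ENSDARG00000078134) was the one lens gene in which all 4 POP125× samples were above all 3 controls, an order shown by 12.4% of all genes. It had 16.2, 21.5 and 17.7 normalized counts in the controls, with 32.6, 17.0 and 17.6 at POP75× and 23.1, 36.5, 30.9 and 36.7 at POP125×. The gap between the highest control and the lowest POP125× sample was small, and the log2 fold change was 0.74 (SE 0.30, unadjusted p = 0.0338, adjusted p = 0.204, limma). No lens gene had all POP75× samples above or below all controls, against 4.94% and 4.38% of all genes, or all POP125× samples above or below all POP75× samples, against 2.95% and 2.75%. The more abundant *crygmx* and *crygmxl2* had estimates of 1.34 and 1.52 at POP125×.

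Gamma N crystallins, which combine features of beta and gamma crystallins, resembled the beta family. *crygn2* (ENSDARG00000030411) had 3343, 788 and 827 normalized counts in the controls, with 5641, 599.9 and 3196 at POP75× and 4888, 5467, 2683 and 2376 at POP125×. Control replicate 1 was above POP125× replicates 3 and 4. The log2 fold change at POP125× was 1.48 (SE 0.71, adjusted p = 0.262, limma), and was not called. The sparsely counted *crygn1* (ENSDARG00000102129) had 32.4, 10.8 and 14.8 normalized counts in the controls, with 64.4, 6.39 and 37.1 at POP75× and 31.5, 59.6, 25.2 and 14.8 at POP125×, and a log2 fold change of 0.71 (SE 0.70, adjusted p = 0.563, limma). The relatives of crybg1, large proteins with crystallin domains that are not confined to the lens, varied less than the beta family. The range over the 10 samples was 1.80-fold for *crybg1b* and 2.54-fold for *crybg1a*, against a median of 2.08-fold over all genes with more than 3 reads in every sample. Their estimates at POP125× were −0.06 and 0.36.

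The samples of set 1 allow a look within a set, with 1 control and 3 exposed pools and hence no replicate of the control. POP125× replicate 4 was below control replicate 1 in 50 of the 51 lens genes, where 50.7% of all genes were lower. POP125× replicate 3 was below it in 47, against 50.1%, and POP75× replicate 4 in 45, against 49.5%. All 3 exposed samples were below control replicate 1 in 44 lens genes, among them all 12 beta crystallins, all 7 membrane, cytoskeleton and lengsin genes and 20 of the 21 gamma M2d crystallins, against 32.5% of all genes. The lens genes moved largely together and 21 of them are close copies. These counts therefore describe single libraries and are not independent observations. For *BFSP1* the log2 differences from control replicate 1 were −0.10 in POP75× replicate 4, −0.76 in POP125× replicate 3 and −3.19 in POP125× replicate 4. For *mipa* they were −0.23, −0.89 and −2.27, and for *crybb1l1* −0.08, −0.68 and −2.10. Gamma M2d genes differed less than these 3 genes in the POP125× samples, as in *crygm2d5* with −0.36 in replicate 3 and −0.87 in replicate 4. The families overlapped, since the beta crystallin *crybgx* differed by −0.27 and −0.63 in the same replicates. In POP75× replicate 4, *crygm2d5* differed more than the genes just named, by −0.61. In set 2, POP75× replicate 3 was below both controls in 34 of the 51, against 40.3% of all genes, and in set 3 POP125× replicate 2 was above POP75× replicate 2 in 35, against 49.5%, and POP125× replicate 1 in 3, against 50.1%.

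When the set was added to the limma fit as a further term, the estimates of most lens genes turned negative. At POP125× 49 of the 51 were then below 0, with a median of −0.48 where that of all genes was −0.01. Of the 51, 20 were called lower, against 4.54% of all genes, and 0 higher, against 8.01% of all genes. The 20 were 10 of the 12 beta crystallins, 5 of the 7 membrane, cytoskeleton and lengsin genes, and *cryaa*, *crybg1a*, *crygn2*, *crygmx* and *crygm2d13*. The sets were made from these same samples, which can narrow the spread left in this fit, and its p-values do not allow for that. Of the water channels, *mipa* had an estimate of −1.78 (SE 0.35, adjusted p = 0.00604, limma with the set as a term). Its SE was 0.98 with the condition alone. The estimate of *mipb* was −1.66 (SE 0.36, adjusted p = 0.00968, same fit). In that fit the estimates were −1.07 for *lgsn* (SE 0.25, adjusted p = 0.0131), −1.13 for *bfsp2* (SE 0.24, adjusted p = 0.00935) and −1.57 for *cryaa* (SE 0.39, adjusted p = 0.0193). *crygm5* and *crygm2f* kept positive estimates of 0.50 and 0.59 and were not called. With 1 library left out of this fit at a time, between 6 (without control replicate 1) and 23 genes were called lower, none higher, and the median stayed between −0.58 and −0.35. The count was 8 without POP75× replicate 3 and 12 without POP125× replicate 4. The share of all genes called in each fit with a library left out is not given, so these counts stand without a background. The fit with the set as a term compares POP125× with control through set 1 and through POP75× samples as links between sets. At POP75× it gave a median of −0.34 and 1 call, *cryba1l2*, lower, against 1.11% of all genes. Between the doses it gave a median of −0.28 and 0 calls, against 0.283% of all genes. There 15 of the 51 had an unadjusted p under 0.05, against 14.7% of all genes. Which of the fits reflects the exposure cannot be told apart with these samples.

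**Figure D3:**
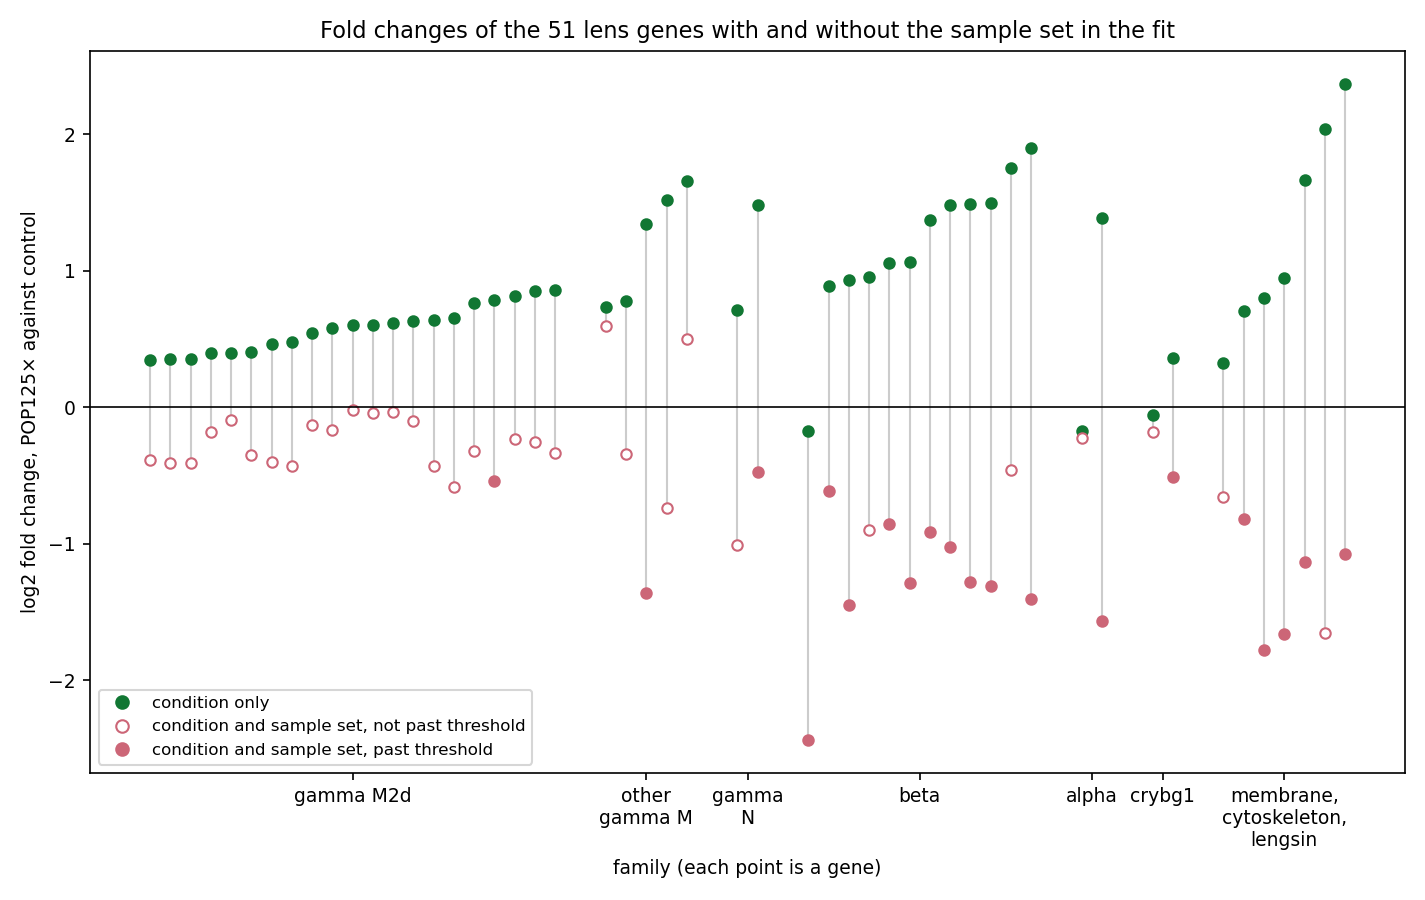
Log2 fold changes of the 51 lens genes between POP125× and control by family, from limma with the condition alone (green) and with condition and sample set (red, filled where past the threshold), with grey lines joining the estimates of a gene. With the condition alone 48 are above 0 and none is past the threshold, and with the set 49 are below 0 and 20 are past it.

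Other genes of lens fibres, outside the 51, had a similar order of samples, though they were among the genes that formed the sets. Of the 14 tested, 0 were called at POP125×, against 1.70% of all genes, and 0 had an unadjusted p under 0.05, against 21.0%. Their median log2 fold change was 0.57. The same low samples, control replicates 2 and 4 and POP75× replicate 3, were below all samples of set 3 in 11 of the 14, against 29.2% of all genes. *capn3a*, a calpain, had 1064, 127 and 131 normalized counts in the controls, with 2003, 51.1 and 984 at POP75× and 1679, 2010.4, 604 and 230.5 at POP125×. With the set as a term, 7 of the 14 were called lower, against 4.54% of all genes, and the median was −1.10. Among transcription factors of the lens placode and fibres, 0 of 15 were called, against 1.70% of all genes, with a median of −0.19. In 4 of them the unadjusted p was under 0.05, against 21.0% of all genes. In 4 of the 15 the samples of set 3 were all above and in 8 all below those of set 2, against 29.2% and 29.5% of all genes. With the set as a term 2 of the 15 were called lower, *pax6b* at −0.61 (adjusted p = 0.00680, limma) and *pax6a* at −0.44 (adjusted p = 0.0466, limma), and 0 higher. *pax6a* had 1104 to 1765 normalized counts over the samples, where *foxe3* had 0.985 to 16.2. RNA of whole larvae does not show which tissue such messages came from, so these calls cannot be placed in the lens. Of these regulators, *six3b* was estimated at −0.69 (SE 0.23, adjusted p = 0.136, limma) and *mafbb* at 0.49 (SE 0.17, adjusted p = 0.149, limma).

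Small heat shock proteins are the wider family of the alpha crystallins. Of the 9 tested, 2 rose at POP125×, against 1.35% of all genes called higher, and none fell, with a median of 0.56. With the set as a term 6 of the 9 were called higher, against 8.01% of all genes, and 0 lower. *hspb9* had 98.3, 78.2 and 68.9 normalized counts in the controls, with 221, 266 and 332 at POP75× and 217, 452, 440.4 and 484 at POP125×. Each exposed sample was above each control. The log2 fold change of *hspb9* was 2.22 at POP125× (SE 0.28, adjusted p = 0.00504, limma) and 2.26 with the set as a term, and it was called with any 1 library left out. *hspb6* rose by 1.76 on the log2 scale (SE 0.28, adjusted p = 0.0160, limma), a call lost without control replicate 2, control replicate 4, POP125× replicate 3 or POP125× replicate 4, where the adjusted p reached 0.0937. At POP75× the estimates were 1.72 for *hspb9* (adjusted p = 0.133, limma) and 1.33 for *hspb6* (adjusted p = 0.388, limma).

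Markers of other cells also differed between the sets. Like the regulators and small heat shock proteins above, they were among the genes that formed the sets. None of the 18 photoreceptor genes was called at POP125× (limma), and 5 had an unadjusted p under 0.05. For this and the following lists, the shares over all genes were 1.70% called and 21.0% with such a p. The median of the 18 was −0.59, and in 14 the samples of set 3 were all below those of set 2, against 29.5% of all genes. Summed, they amounted to 78007 to 135225 normalized counts in control, 73419 to 166770.3 in POP75× and 64061 to 76269 in POP125× samples. The 11 genes of other retinal cells summed to 11049 to 11544, 12242 to 15165 and 10901 to 14565 (0 called, 5 with an unadjusted p under 0.05, median 0.07), and the 8 skin genes to 141640.0 to 199061, 106979 to 214679 and 81421 to 110021 (0 called, 6 such p, median −0.52). The 10 muscle and heart genes, with 0 called, 0 such p and a median of −0.05, summed to 571794 to 880829 in control, 575112 to 1379092 in POP75× and 610406 to 691970 in POP125× samples, the highest being POP75× replicate 3. Most clock genes were low in set 3, whose samples were all below those of set 2 in 10 of the 13 tested. In the other 3 they were all above, and over all genes these shares were 29.5% and 29.2%. The median deviation of the 13 from their means over all samples was −1.07, −0.99 and −1.23 on the log2 scale in POP75× replicate 2 and POP125× replicates 1 and 2. It was between 0.21 and 0.76 in the other samples. At POP125× 0 clock genes were called, 1 had an unadjusted p under 0.05 and the median estimate was −0.59. With the set as a term the medians were −0.14 for photoreceptor, −0.20 for other retinal and 0.04 for skin genes. They were 0.50 for muscle and heart and −0.00026 for clock genes. In that fit 1 photoreceptor gene, *saga*, was called lower and 1 muscle and heart gene higher, against 4.54% and 8.01% of all genes. The other lists of this paragraph had 0 calls in it. None of the genes of these lists was at 0 in any sample, and the part of these lists in the order of the lens genes was not tested.

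**Figure D4:**
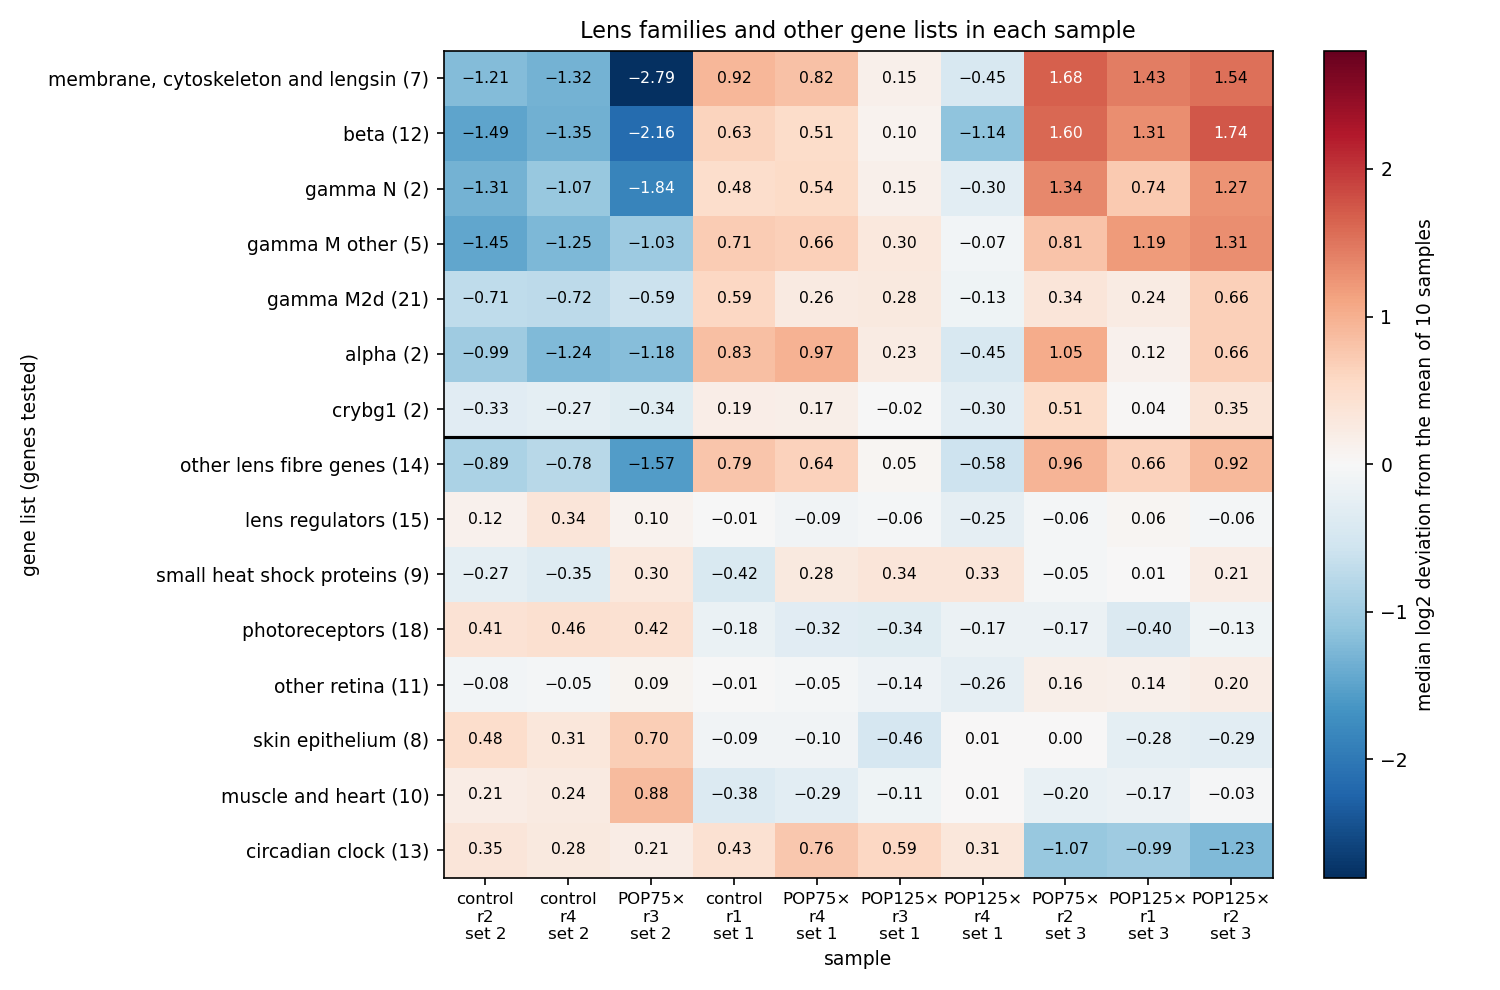
Median log2 deviation of each gene list from its mean over the 10 samples, with the number of genes tested in brackets, lens families above the line and other lists below it, and samples ordered by set. The membrane, cytoskeleton and lengsin genes run from −2.79 in POP75× replicate 3 to 1.68 in POP75× replicate 2. The other lens fibre genes have the same lowest and highest samples, at −1.57 and 0.96, with some differences in order between them. The median of the clock genes is low in the 3 samples of set 3, although 3 of the 13 are high there.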

How the data were processed

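Whole-larva RNA-seq of 10 pools was analysed. The authors deposited 1 table of normalized counts, a signal per gene made by dividing whole reads by a size factor of each sample, and the submitters' processing notes name GRCz11 and DESeq2. Read trimming, alignment and counting were not re-examined. The deposited comparison tables (mean counts, log2 fold changes with their errors, test statistics and p-values of the authors) were not used. Reads were recovered by undoing the size factors: 100% of values were whole within 0.01. No sample column was left unused.

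The study's methods use DESeq2, and because the deposited values are not raw counts the main test was limma (3.58.1, R 4.3.3) with a mean-variance trend on log2(normalized count + 1), with condition as the only term over all 10 samples and Benjamini-Hochberg adjustment over the 21563 genes tested. Fold changes on this scale understate the change of low genes. Tests of the recovered reads (edgeR 4.0.16, DESeq2 1.42.0), other scalings, pseudocounts and filters, the replicate number as a block, the sample set as a term, and each library left out were alternatives. The planned tests had the condition as their only term, and the set term was not among them. The set-term fits with a library left out were added after seeing the data. The testing code was tested on simulated data. Python 3.11.15 and matplotlib 3.10.9 drew the figures.

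The members and the 8 gene lists were chosen with earlier results of these data known. Lens genes were named by rule: every alpha crystallin and membrane, cytoskeleton and lengsin gene, and within the beta, gamma M and gamma N crystallins the 3 with the highest mean and the 3 with the smallest p at POP125×. Others named for a count or a contrast were chosen after their values were seen. Counts of 3 reads per library were taken as the floor, and 2 genes at or below it were left out of the ranges. Same-numbered samples of different conditions did not deviate together beyond the range of other pairs, so that the main test did not treat the numbers as pairs. A pairing was not excluded by this. The p-values of the main fit measure the spread between the pools deposited. Those of the fits with the set as a term measure the spread left after condition and set, with sets made from the same samples.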

Additional observations from a re-analysis of the deposited data

How the results depend on the processing

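At POP125× against control, the count of lens genes called moved from 0 to 1 (*crygm5*, higher) when only those groups were fitted with DESeq2. That fit called 13.4% of all genes, where the main fit called 1.70%. In limma with a library left out the count ranged from 0 to 1, and without control replicate 1 that fit called 2.19% of all genes. Adding the sample set to limma gave 20 calls, all lower, where 4.54% of all genes were called lower and 8.01% higher. The median fold change of the lens genes in that fit was −0.48. With control replicates 1, 2 and 4, POP75× replicates 2, 3 and 4, or POP125× replicates 1 to 4 left out of that fit in turn, the counts were 6, 14, 15, 23, 8, 18, 20, 23, 21 and 12 and the medians −0.46, −0.52, −0.48, −0.57, −0.58, −0.45, −0.46, −0.52, −0.56 and −0.35. The shares of all genes called in these fits are not given, so the counts stand without a background. At POP75× the set term gave 1 call, lower, against 1.11% of all genes in that direction.

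The fits of single genes kept their direction and their side of the threshold in 540 of 570 gene results by alternative. A limma estimate at POP125× against control cannot change when a POP75× library is left out or the trend is dropped. Part of the 540 could therefore not change direction, and that count is no measure of stability. The set term reversed 20: cryaa −1.57, BFSP1 −1.66, bfsp2 −1.13, lgsn −1.07, lim2.1 −0.66, lim2.4 −0.82, mipa −1.78, mipb −1.66, crybb1l1 −1.40, crybb1l2 −1.29, crybb1 −1.28, crybgx −0.46, cryba1l1 −0.91, cryba2b −0.61, crygm2d10 −0.039, crygm2d8 −0.13, crygm2d5 −0.43, crygm2d21 −0.10, crygn2 −0.48 and crygn1 −1.01. The value of cryabb ranged from −0.42 to 0.17 with a library left out. The cause of these shifts was not tested.

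With the replicate block, limma called 1 lens gene (*crygm5*, 5.40% of all genes) and DESeq2 called 8, all higher (11.7% of all genes). Correlations of same-numbered samples ran from −0.41 to 0.49 over 8 pairs, and those of other pairs from −0.66 to 0.56. The ranges overlapped, and with so few pairs it cannot be told whether equal numbers mark a pairing. A filter at a mean of 100 left 43 of the 51 lens genes. Depth limited *crybb1l3* and *crygm2e*, which had 1 and 3 reads in their lowest samples.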
